A study of Mus musculus with 24 samples.

Results

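The genes described here encode the chains of the collagens. A gene was taken as a collagen chain where its symbol in both deposited tables was Col, a number, a and a second number, as in Col4a1. The rule used no measured value and found 44 of 55421 genes. By textbook structure they were put into 11 fibrillar chains, 8 chains of basement membranes, 9 fibril-associated chains and 16 others. RNA came from whole embryos or yolk sacs of C57BL/6 mice at embryonic day 9.5, and messenger RNA libraries were sequenced. The mice belonged to either of 2 lines with a mutant Setd2 gene, which encodes a histone methyltransferase. The labels call the first line null, and the second CD, for a catalytic dead enzyme. A mutation taken from a patient is named in the series title. Each line gave wild type (WT), heterozygous (HE) and homozygous (HO) samples, with 2 libraries per group and 12 groups in all. The WT groups were separate for each line, and no other allele or treatment is named for any group. How the alleles were made, whether samples were pooled and whether replicates came from separate animals are not stated in the labels. In null HO and CD HE embryos, and in null HE, null HO and CD HE yolk sacs, 1 replicate held Y-linked transcripts and the other did not. The replicates of these groups were therefore separate samples. For the other groups this is not known, and p-values reflect the spread among the samples deposited.

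Collagens are trimers of chains wound into a triple helix, and different chains build different structures. Fibrillar collagens form the fibres of connective tissue and are made mainly by mesenchymal cells. Type IV collagen forms the sheet of basement membranes, and in the extraembryonic membranes of the mouse the parietal endoderm is known for making large amounts of it. Fibril-associated collagens sit on the surface of fibrils, and the remaining chains form beaded filaments, anchoring fibrils or networks or span the cell membrane. After synthesis the chains are hydroxylated, folded with dedicated chaperones, trimmed outside the cell and crosslinked.

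Levels are CPM (counts scaled to library size, and between libraries by TMM) where a gene is followed across libraries, and FPKM (counts scaled to gene length and library total, as deposited) where genes are compared with each other. Changes are log2 fold changes ± 1 standard error (SE). A gene is called where its Benjamini-Hochberg adjusted p from the edgeR quasi-likelihood test over all genes of a fit is below 0.05. Total counts ran from 23414255 to 27674831 per embryo library and from 16400137 to 22113787 per yolk sac library. In whole tissues, fewer cells of a type and less RNA per cell cannot be told apart.

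Some libraries need care. Setd2 itself fell with the null genotype in embryos, at 229 to 232 CPM in WT, 157 to 169 in HE and 93.3 to 104 in HO. In yolk sacs of the null line the libraries labelled WT held 102 to 114 CPM, no more than the 114 to 119.7 of those labelled HE and below the 178 to 190.4 of CD WT, with 75.6 to 78.9 in those labelled HO, so this label went against the gene. These groups are called by their labels below. The CD allele cannot be checked by level, with Setd2 at 224 to 255 CPM in WT and 213 to 218 in HO embryos. CD WT embryo replicate 2 stood apart: its summed visceral endoderm markers (10 genes such as Afp and Ttr) reached 779 CPM, against 11.8 to 105 in the other 11 embryo libraries. Null HO embryo replicate 2 stood apart too, at 11.9 CPM of the trophoblast gene Prl3d1 against 0.0386 in replicate 1, and a summed level of 95.4 CPM of primitive erythroid markers against 1321. CD HO yolk sac replicate 1 held 45.5 CPM of Prl3d1 against 0.0598 in replicate 2. By Xist and Y-linked transcripts, WT and HO libraries of the CD line differed in sex in both tissues, and CD HE yolk sac replicate 2 held both kinds of transcript. Null WT embryos differed in sex from null HE embryos and from CD WT embryos.

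In WT embryos the leading collagen transcript was Col18a1, a proteoglycan chain of basement membranes, with a mean of 57.6 ± 2.97 FPKM (SD, n = 4). Col4a1 (51.6 ± 4.65 FPKM), Col1a1 (43.3 ± 17.6), Col3a1 (36.2 ± 15.2) and Col4a2 (33.8 ± 1.53) came next. Neighbours in this order overlapped, since Col1a1 and Col3a1 varied widely between the 4 libraries and both were lowest in CD WT replicate 2. These 5 chains made up 62.8% of all collagen FPKM, and 25 of the 44 members averaged at least 1 FPKM. Col2a1, the chain of cartilage and of the sheath of the notochord, followed at 24.7 ± 2.82 FPKM.

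In WT yolk sacs the order of means differed, with Col1a1 ahead of the basement membrane chains. Col1a2 was behind Col4a1 and Col4a2 in both tissues. Col1a1 led with 220.3 ± 83.2 FPKM (SD, n = 4), followed by Col4a1 (170.3 ± 18.8), Col3a1 (106 ± 41.6), Col4a2 (100.1 ± 10.6) and Col1a2 (62.8 ± 26.9). The first 5 chains made up 81.4% of collagen FPKM, and 22 members averaged at least 1 FPKM. Here too the ranges of neighbours overlapped, with Col1a1, Col3a1 and Col1a2 all highest in the null library labelled WT replicate 2.

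**Figure D1:**
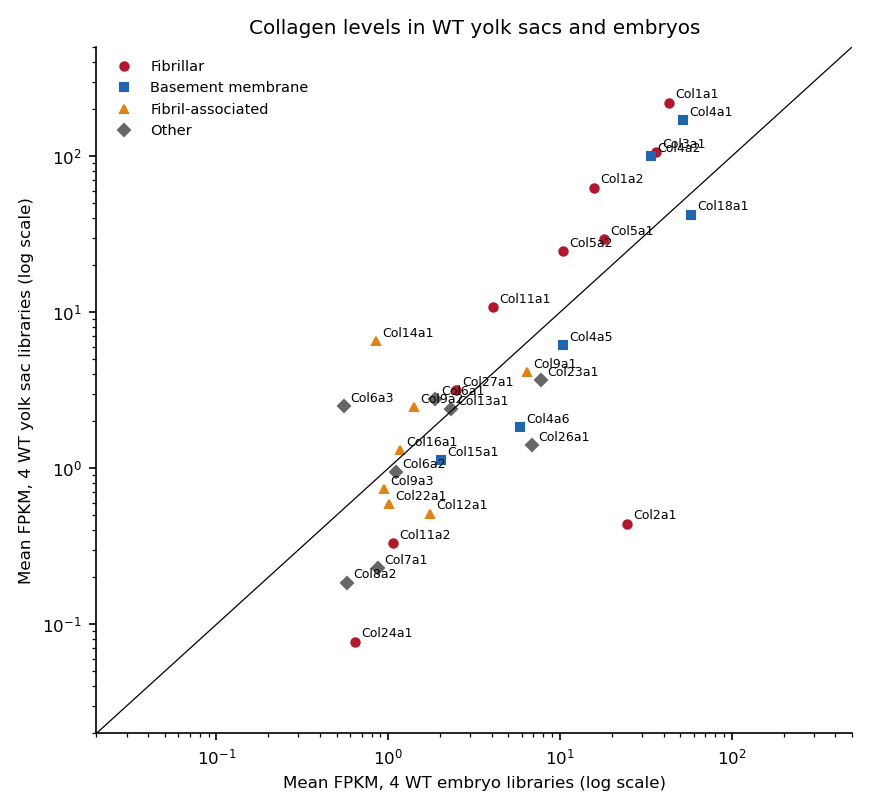
Mean FPKM of each collagen chain in the 4 WT yolk sac libraries (vertical, log scale) against the 4 WT embryo libraries (horizontal, log scale), for members with 0.5 FPKM or more in either tissue. Points above the line were higher in yolk sacs: Col1a1, Col1a2, Col3a1, Col4a1, Col4a2 and Col14a1 lie above it, and Col2a1, at 24.7 FPKM in embryos and 0.442 in yolk sacs, lies farthest below.

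In a fit of all 24 libraries, 27 of the 40 members tested differed between WT yolk sacs and WT embryos, 13 higher and 14 lower in yolk sacs. Of all 20543 genes tested, 71.7% were called (34.2% higher, 37.4% lower), so the collagens' share was near the background. The median change was -0.33 over members and -0.08 over all genes. Tissue, table and sequencing run cannot be told apart here. Col4a1 was higher by 2.04 ± 0.08 (edgeR adjusted p = 4.3e-14) and its partner Col4a2 by 1.88 ± 0.08 (edgeR adjusted p = 7.6e-14). Col14a1, a fibril-associated chain that binds to type I fibrils, was higher by 3.28 ± 0.17 (edgeR adjusted p = 1.5e-12). The type I chains moved the same way, by 2.61 for Col1a1 and 2.24 ± 0.17 (edgeR adjusted p = 6.5e-10) for Col1a2. Lower in yolk sacs were Col2a1, at -5.51 ± 0.26 (edgeR adjusted p = 3.7e-13), Col26a1 at -2.10 ± 0.16 (edgeR adjusted p = 6.6e-10) and Col24a1, a minor fibrillar chain, at -2.90 ± 0.27 (edgeR adjusted p = 1.1e-08). The other type IV pair went the opposite way to Col4a1 and Col4a2: Col4a6 was called lower at -1.37 ± 0.17 (edgeR adjusted p = 5.4e-07) and Col4a5 at -0.48.

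In homozygous null embryos basement membrane chains such as Col18a1 and type IV rose, and Col3a1, Col2a1, Col23a1 and Col26a1 fell. Of 38 members tested, 6 rose and 15 fell, against 16.2% and 16.5% of all 19215 genes tested (32.7% in either direction). That is 15.8% of members higher and 39.5% lower. By class, 5 of 8 basement membrane chains rose and 1 fell, 0 of 11 fibrillar chains rose and 5 fell, 1 of 8 fibril-associated chains tested rose and 4 fell, and 0 of 11 other chains tested rose and 5 fell. Without WT replicate 2 the members called were 13 in place of 21, and without HO replicate 2, which stands apart, they were 19, 6 higher and 13 lower. The median change was 0.46 for basement membrane chains, -0.07 for fibrillar, -0.45 for fibril-associated and -0.96 for other chains, beside 0.01 over all genes.

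**Figure D2:**
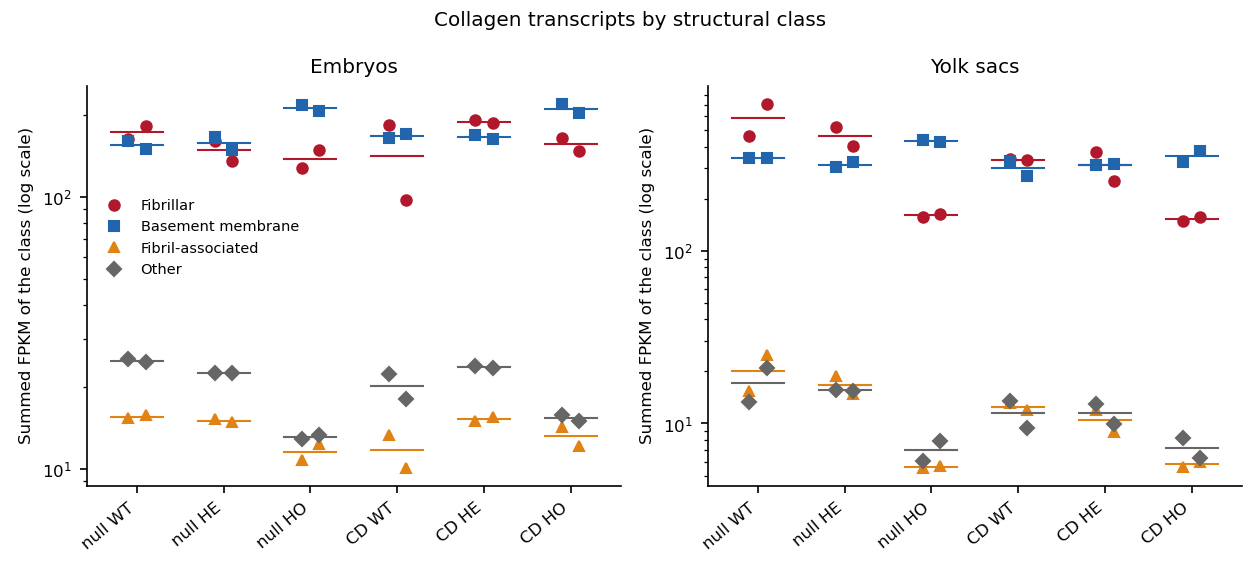
Summed FPKM of the collagen chains of each structural class (log scale) in each library of embryos (left) and yolk sacs (right), with a bar at the group mean. Basement membrane sums of HO embryos, 203 to 219, lie above all WT and HE embryos, 149 to 171, and fibrillar sums of HO yolk sacs, 149 to 163, lie below all WT and HE yolk sacs, 254 to 703.

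Summed over the class, basement membrane chains held 160.4 and 150.3 FPKM in the null WT embryos, 165 and 149 in HE and 218 and 207 in HO. Both HO sums were above all WT and HE sums of either line. Fibrillar sums were 163 and 182 FPKM in WT, 161 and 136 in HE and 127 and 148 in HO, so HE and HO overlapped. CD WT replicate 2, at 97.4 FPKM, was below all HO embryos of either line. The class of other chains, led by Col23a1 and Col26a1, went from 25.3 and 24.6 FPKM to 12.9 and 13.3.

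Among basement membrane chains, Col18a1 (ENSMUSG00000001435, chr10:77052178-77166548, minus strand; all gene positions are mm10, GENCODE M21) was at 386 and 380.3 CPM in null WT embryos and 628 and 577 in HO, a rise of 0.65 ± 0.07 (edgeR adjusted p = 3.4e-05). The groups did not overlap. Col4a6, a chain found with Col4a5 in the basement membrane of smooth muscle, was at 39.1 and 40.1 CPM in WT against 79.5 and 81.9 in HO, and rose by 1.03 ± 0.11 (edgeR adjusted p = 3.6e-05). Col4a5 was at 67.1 and 69.02 CPM in WT against 103 and 98.7 in HO, and rose by 0.57 ± 0.07 (edgeR adjusted p = 9.8e-05). Both genes lie on the X chromosome, and the HO libraries with and without Y-linked transcripts were both above the WT libraries, which had none. The widespread chains rose less, Col4a2 from 230.4 and 207 to 294 and 262 CPM by 0.35 ± 0.08 (edgeR adjusted p = 0.0063). Col4a1 went from 387 and 336 to 452 and 461 CPM, by 0.34 ± 0.09 (edgeR adjusted p = 0.011). Without WT replicate 2 neither was called, with adjusted p = 0.12 for Col4a1 and 0.078 for Col4a2. Col15a1, the relative of Col18a1 found around vessels and muscle, went the other way, from 19.4 and 14.9 to 4.97 and 2.73 CPM, a log2 change of -2.14 ± 0.40 (edgeR adjusted p = 0.0017). Col4a3 and Col4a4, known from the kidney filter, stayed under 1 CPM and were not called.

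Laminin chains, which lie beside type IV collagen in basement membranes and were listed here among parietal endoderm markers, also rose in null HO embryos. Lamb1 changed by 0.93 ± 0.07 (edgeR adjusted p = 2.3e-06) and Lamc1 by 0.92 ± 0.08 (edgeR adjusted p = 1.4e-05). Of the 11 genes of that list 5 rose and 1 fell, and their summed level was 1407 to 1503 CPM in WT and 2104 to 2125 in HO. Thbd, also on that list, was at 7.38 and 5.63 CPM in WT embryos and 5.17 and 4.57 in HO. The part of these cells in the rise of collagen chains was not tested.

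Among fibrillar chains Col3a1 fell, while the type I chains were not called. Col3a1 (ENSMUSG00000026043, chr1:45311538-45349706, plus strand), the chain of type III fibrils in vessels and soft connective tissue, was at 429.8 and 456 CPM in WT against 147 and 131 in HO. It fell by 1.67 ± 0.32 on the log2 scale (edgeR adjusted p = 0.0021). Col1a1 (ENSMUSG00000001506, chr11:94936224-94953042, plus strand), with which it often shares fibrils, was at 241 and 338 CPM in WT against 312 and 361 in HO, and Col1a2 at 188 and 204 CPM in WT against 214 and 331. Neither type I chain was called, at 0.22 (edgeR adjusted p = 0.66) and 0.48 (edgeR adjusted p = 0.12). The ratio of Col3a1 to Col1a1 FPKM was 0.238 to 0.313 in the 4 HO embryos of both lines and 0.628 to 1.30 in the 8 WT and HE embryos. This ratio was chosen after its values were seen and carries no test. It separated the genotypes with CD WT replicate 2 included, whose ratio of 0.628 was the lowest of the WT and HE embryos. In yolk sacs the same ratio was 0.330 to 0.584 in HO and 0.451 to 0.586 in WT and HE, which overlap.

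The promoters of Col1a2 and Col3a1 are shown because Col3a1 fell and Col1a2 was not called in null HO embryos, while both fell in yolk sacs. Both stretches lie before the RefSeq start site (GRCm38.p6, plus strand), outside annotated exons, for Col1a2 at chr6:4505370-4505492 and for Col3a1 at chr1:45311288-45311537. Capitals mark a GC box (GGGCGG) or a TATA box (TATAAA) on either strand.
Col1a2: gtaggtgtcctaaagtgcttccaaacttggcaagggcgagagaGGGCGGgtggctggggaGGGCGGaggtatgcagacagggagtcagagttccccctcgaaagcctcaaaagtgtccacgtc
Col3a1: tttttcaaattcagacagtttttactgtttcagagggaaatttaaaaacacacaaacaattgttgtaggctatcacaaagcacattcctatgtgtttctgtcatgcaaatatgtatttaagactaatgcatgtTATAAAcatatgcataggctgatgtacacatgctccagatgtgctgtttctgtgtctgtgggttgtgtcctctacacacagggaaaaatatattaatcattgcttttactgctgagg
The stretch of Col1a2 held 2 GC boxes and that of Col3a1 a TATA box, 117 bases before the start site. The stretches differ in length, with 123 bases for Col1a2, where 127 exonic bases are left out, and 250 for Col3a1. The full window of Col1a2 also held a CCAAT box. GC content over the 300-base windows was 61.0% for Col1a2 and 37.7% for Col3a1. Among all 32851 RefSeq windows of 300 bases, 35.7% held GGGCGG or its reverse complement and 13.6% held TATAAA or its reverse complement, and among the 38 windows of 35 members these were 60.5% and 13.2%.

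**Figure D3:**
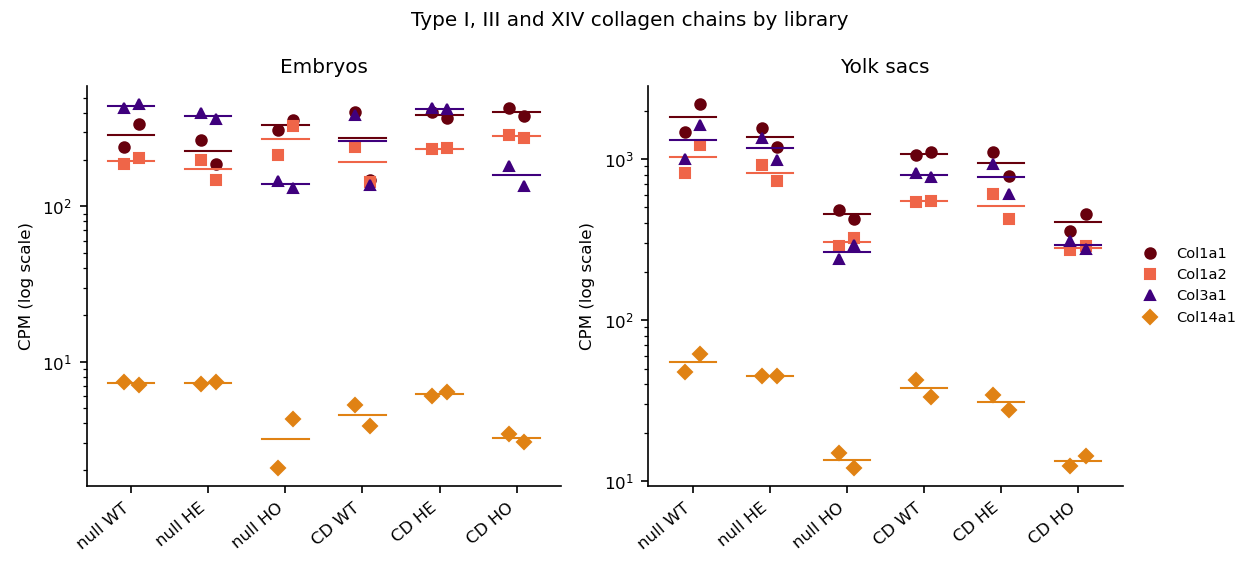
CPM (log scale) of Col1a1, Col1a2, Col3a1 and Col14a1 in each library of embryos (left) and yolk sacs (right), with a bar at each group mean. In HO embryos Col3a1, at 131 to 182 CPM, lies below Col1a1 and Col1a2. It also lies below both in CD WT embryo replicate 2 and below Col1a1 in CD WT embryo replicate 1. In HO yolk sacs all of these chains lie below the WT and HE libraries.

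Of the chains known from cartilage, Col2a1 and Col11a1 fell. Col2a1 (ENSMUSG00000022483, chr15:97975602-98004695, minus strand) was at 261 and 231 CPM in null WT embryos and 150.1 and 126 in HO, a log2 change of -0.83 ± 0.08 (edgeR adjusted p = 3.0e-05). Col11a1, which builds cartilage fibrils with Col2a1, went from 64.4 and 60.7 to 31.5 and 28.1 CPM, a log2 change of -1.07 ± 0.18 (edgeR adjusted p = 8.5e-04). Both groups were well apart for each of these genes. Col9a3, a type IX chain on the same fibrils, fell by 0.51 on the log2 scale (edgeR adjusted p = 0.033), while Col9a1 and Col9a2 at -0.42 and -0.42 were not called. The call of Col9a3 was lost under 8 of 10 alternatives, with adjusted p = 0.053 to 0.21 when 1 library was left out, and 6.07% of its exonic bases overlap Tcfl5 on the other strand, whose reads cannot be told apart without strand. Col11a2, the partner of Col11a1, was at 0.16 and not called. Col5a3 and Col24a1, minor fibrillar chains, fell by 1.65 and 0.74, with adjusted p = 0.023 to 0.09 and 0.0054 to 0.057 when 1 library was left out. The call of Col24a1 was lost without WT replicate 1, and that of Col5a3 without either WT library and without HO replicate 1. Of the 10 notochord and cartilage precursor markers 6 rose and 1 fell in the same comparison. Foxa2 at 1.19, Matn4 at 1.08, Nog at 1.02 and Hapln1 at 0.35 were among the rises. The fall was that of Sox9, the regulator of Col2a1 in cartilage, at -0.28 (edgeR adjusted p = 0.032). The part of these cells in the collagen values was not tested.

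Among the other chains 5 of 11 tested fell, led by Col23a1 and Col26a1. Col23a1 (ENSMUSG00000063564, chr11:51289920-51583918, plus strand), a transmembrane collagen, was at 52.1 and 47.8 CPM in WT against 17.9 and 18.9 in HO, a log2 change of -1.44 ± 0.10 (edgeR adjusted p = 1.9e-06), the smallest p of the members here. Col26a1 was at 66.4 and 61.005 CPM in WT against 25.02 and 19.9 in HO, a log2 change of -1.502 ± 0.13 (edgeR adjusted p = 8.6e-06). Neither gene's HO range came near its WT range. Col25a1 and Col17a1, also membrane-spanning, and the vessel network chain Col8a2 fell by 1.27, 2.07 and 0.96. The call of Col8a2 was lost under 7 of 10 alternatives, with adjusted p = 0.071 to 0.22 when 1 library was left out. The beaded filament chains Col6a1, Col6a2 and Col6a3 were not called, nor were Col7a1, Col8a1 or Col13a1. Among fibril-associated chains Col14a1 fell by 1.20, Col16a1 by 0.57 and Col12a1 by 0.48. The calls of Col16a1 and Col12a1 were lost without either WT library and without HO replicate 2, with adjusted p = 0.034 to 0.14 and 0.002 to 0.27 when 1 library was left out. The fibril-associated chain Col20a1 rose from 0.657 and 0.532 to 2.70 and 1.17 CPM, by 1.71 ± 0.39 (edgeR adjusted p = 0.0059). It was not called without WT replicate 2 or without HO replicate 1, at adjusted p = 0.056 and 0.075.

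Mesenchyme markers moved in the same direction as the falling chains. In null HO embryos 7 of 8 fell, with a summed level of 949 to 990.1 CPM in WT and 529 to 606 in HO. In CD HO embryos 5 of 8 fell, with 679.6 to 901 CPM in WT and 592 to 609 in HO. Twist1 fell by 1.54 in null HO embryos (edgeR adjusted p = 2.2e-06) and Pdgfra by 0.31 (edgeR adjusted p = 0.0082). The part of mesenchyme in the collagen changes was not tested. Of other lists in null HO embryos, 4 of 8 primitive erythroid markers fell, 5 of 6 trophoblast giant cell markers tested rose and 1 fell, 2 of 6 decidua markers tested rose, 1 of 8 endothelium markers rose and 2 fell, and 1 of 9 visceral endoderm markers tested fell. The trophoblast genes Prl3d1, Prl2c2 and Prl7a1 were high in HO replicate 2 alone, at 11.9, 5.12 and 4.03 CPM against 0.0386 CPM of each in replicate 1.

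Homozygous CD embryos showed a smaller set, with 7 members higher and 3 lower of 38 tested. Of all genes tested 6.92% were higher and 9.14% lower (16.1% in either direction), against 18.4% and 7.89% of members. Of the 10, 9 were also called in null HO embryos, a share of 90.0% of the CD calls and 42.9% of the null calls. Of these 9, 8 changed the same way. The overlap over all genes was not counted, so it is not read as particular to collagens. The lines share no control library. Basement membrane chains again rose, 4 of 8, with a median change of 0.32 in the class beside 0.00 over all genes. Without HO replicate 1 the members called were 5 in place of 10. Of the 11 parietal endoderm markers 3 rose, Lamb1 by 0.50, Lamc1 by 0.43 and Lama1 by 0.29, and Pth1r fell. Their summed level was 1649 to 1681 CPM in WT and 2046 to 2091 in HO, and the part of these cells in the collagen values was not tested.

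Col18a1 was at 418 and 436 CPM in CD WT embryos and 602 and 609 in HO, a rise of 0.50 ± 0.07 (edgeR adjusted p = 4.9e-04). Col4a5 was at 68.6 and 75.7 CPM in WT against 96.9 and 86.7 in HO, a rise of 0.35 ± 0.07 (edgeR adjusted p = 0.0056). In both genes the HO libraries were all above the WT libraries. Col4a6 was at 47.6 and 59.9 CPM in WT against 74.5 and 71.02 in HO and rose by 0.44 ± 0.10 (edgeR adjusted p = 0.015), and Col4a2 rose by 0.29 ± 0.08 (edgeR adjusted p = 0.03). Both calls were lost in 5 of 10 alternatives, with adjusted p = 0.0022 to 0.1 and 0.031 to 0.25 when 1 library was left out, and that of Col4a5 was lost without HO replicate 1 (adjusted p = 0.071). Col4a1 was at 385 and 436 CPM in WT against 466 and 409 in HO, groups that overlapped, and was not called.

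Col23a1 was at 42.3 and 34.5 CPM in CD WT embryos and 24.2 and 22.7 in HO, a log2 change of -0.71 ± 0.10 (edgeR adjusted p = 6.3e-04). Col2a1 was at 207 and 213 CPM in WT against 155 and 147 in HO, a log2 change of -0.48 ± 0.08 (edgeR adjusted p = 0.0029). The same chains were lower in HO embryos of both lines. Col26a1 was at 54.2 and 41.02 CPM in WT against 30.6 and 32.3 in HO, a log2 change of -0.60 ± 0.12 (edgeR adjusted p = 0.0071), which was not called without WT replicate 1 (adjusted p = 0.05005) or without HO replicate 1 (adjusted p = 0.061). Col11a2 rose in this line, from 7.51 and 5.87 to 11.8 and 13.8 CPM, by 0.94 ± 0.17 (edgeR adjusted p = 0.0035), and Col20a1 from 0.602 and 0.500 to 1.99 and 2.36 CPM, by 1.97 ± 0.40 (edgeR adjusted p = 0.0065). Col16a1 was called higher here, at 0.60, and lower in null HO embryos. Its CD call was lost without CD WT replicate 2, at 0.35 (edgeR adjusted p = 0.26).

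CD WT embryo replicate 2 decided several fibrillar values. Col3a1 was at 391 and 138 CPM in CD WT embryos and 182 and 136 in HO, and its change of -0.73 was not called (edgeR adjusted p = 0.14). Without that library the change was -1.31 and called (edgeR adjusted p = 4.0e-05), and Col11a1 likewise went from -0.44 to -0.78 (edgeR adjusted p = 6.8e-04). Without WT replicate 1 the change of Col3a1 was 0.20. The number of members called was 11 without replicate 2 and 10 without replicate 1. With a term for Y-linked transcripts 4 members were called. CD WT embryos both held Y-linked transcripts and CD HO embryos held none, so sex and genotype cannot be told apart within these groups. Visceral endoderm markers were lower in CD HO embryos than in WT for all 9 tested, with a sum of 11.8 to 16.7 CPM in HO and 105 to 779 in WT.

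**Figure D4:**
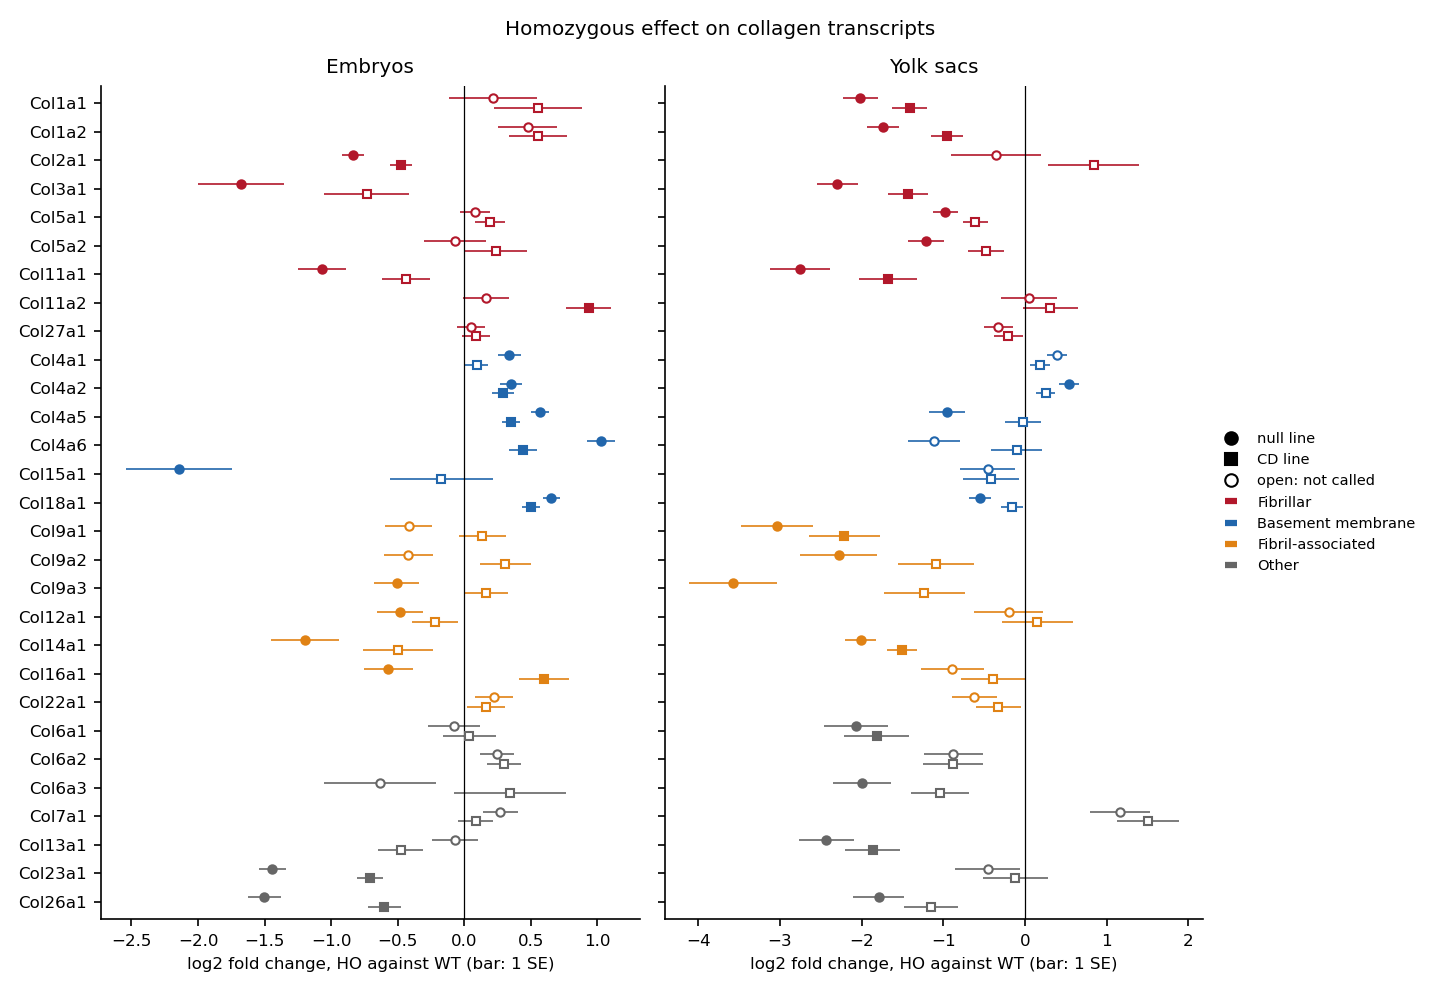
Log2 fold change of HO against WT with 1 SE for each member tested in both tissues at a mean of 1 CPM or more, in embryos (left) and yolk sacs (right), with circles for the null line, squares for the CD line, colours for the class and filled symbols for called changes. Col4a2, Col4a5, Col4a6 and Col18a1 lie right of 0 in embryos, and Col1a1, Col1a2, Col3a1, Col11a1 and Col14a1 lie left of 0 in yolk sacs, for both lines.

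Yolk sacs of the null line labelled HO held less type I, III, XI and XIV collagen RNA than those labelled WT. Of 38 members tested 2 rose and 17 fell, or 5.26% and 44.7%, against 2.3% and 3.97% of all 17755 genes tested (6.27% in either direction). By class, 6 of 11 fibrillar, 4 of 9 fibril-associated, 5 of 11 tested other and 2 of 7 tested basement membrane chains fell. The median change was -1.19 in fibrillar, -1.79 in other, -0.89 in fibril-associated and -0.46 in basement membrane chains, beside 0.02 over all genes. Fibrillar sums were 459.7 and 703 FPKM in the libraries labelled WT, 519 and 403 in those labelled HE and 156 and 163 in those labelled HO. Basement membrane sums were 342 and 343, 304 and 323 and 436 and 425 FPKM. Col4a1 and Col4a2 together made up 25.5 to 35.03% of collagen FPKM in the former and 63.5 to 66.7% in the latter.

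The type I chains fell with type III here. Col1a1 was at 1474 and 2190.5 CPM in null yolk sacs labelled WT and 485 and 422 in those labelled HO, a log2 change of -2.01 ± 0.21 (edgeR adjusted p = 5.7e-04). Col1a2 was at 818 and 1229 CPM against 290.4 and 323, a log2 change of -1.74 ± 0.20 (edgeR adjusted p = 7.5e-04). Col3a1 was at 994 and 1623 CPM against 239.8 and 292, a log2 change of -2.30 ± 0.25 (edgeR adjusted p = 5.7e-04). In all these genes the highest HO library was below the lowest WT library, and replicate 2 of the WT label was the highest of all. The calls stood under all 10 alternatives run for each.

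Chains that join type I fibrils fell beside them. Col14a1 was at 47.3 and 61.9 CPM in the libraries labelled WT and 14.9 and 12.1 in those labelled HO, a log2 change of -2.01 ± 0.19 (edgeR adjusted p = 2.0e-04). Col5a1 and Col5a2, chains that start type I fibrils, fell by 0.97 and 1.22, and neither was called without WT replicate 2 or without HO replicate 1, with adjusted p = 0.0045 to 0.064 and 0.015 to 0.093 when 1 library was left out. Col11a1 was at 127 and 227 CPM against 26.6 and 25.9, a log2 change of -2.75 ± 0.37 (edgeR adjusted p = 0.0019). Its cartilage partner Col2a1 was low, at 3.38 and 6.36 CPM in the libraries labelled WT and 5.05 and 2.54 in those labelled HO, and was not called. The type IX chains Col9a1, Col9a2 and Col9a3 fell by 3.04, 2.28 and 3.57. Of these only Col9a1 kept its call under every alternative run, with adjusted p = 0.016 to 0.16 for Col9a2 and 0.012 to 0.056 for Col9a3 when 1 library was left out.

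The transmembrane chain Col13a1 was at 10.7 and 13.9 CPM in yolk sacs labelled WT and 2.85 and 1.67 in those labelled HO, a log2 change of -2.43 ± 0.34 (edgeR adjusted p = 0.0025). In null embryos its groups overlapped. The beaded filament chains Col6a1 and Col6a3 fell by 2.07 and 1.997, and Col26a1 by 1.79. Col8a2 was called lower with 2 and 1 counts in the libraries labelled HO and 19 and 32 in those labelled WT. The calls of Col6a1 and Col26a1 were lost without WT replicate 2 and without HO replicate 1, and those of Col6a3 and Col8a2 also without HO replicate 2. Adjusted p was 0.0072 to 0.11 for Col6a1 and 0.016 to 0.082 for Col6a3 when 1 library was left out. Without WT replicate 2, or without HO replicate 1, 8 members in all were called in place of 19.

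Of the basement membrane chains, Col4a2 rose, from 727 and 668 to 1055 and 975 CPM, by 0.54 ± 0.12 (edgeR adjusted p = 0.02), a call lost in each of the 4 fits with 1 library left out (adjusted p = 0.051 to 0.19). Col4a1 was at 1349 and 1308 CPM against 1811 and 1685, higher by 0.40 without passing (edgeR adjusted p = 0.075). Col18a1 went from 299 and 356 to 198 and 249.2 CPM, a fall of 0.55 (edgeR adjusted p = 0.03). Col4a5 was at 38.7 and 62.8 CPM against 21.7 and 30.6, a fall of 0.96 (edgeR adjusted p = 0.025), and Col4a6 at 12.97 and 22.6 CPM against 5.51 and 10.96, at -1.12 not called (edgeR adjusted p = 0.058). The calls of Col18a1 and Col4a5 were lost without WT replicate 2, without HO replicate 1 and with a term for Y-linked transcripts, and that of Col18a1 also without WT replicate 1. Adjusted p was 0.027 to 0.24 for Col18a1 and 0.016 to 0.25 for Col4a5 when 1 library was left out. Parietal endoderm markers, 4 of 11 higher and none lower, summed to 2386 to 2575 CPM in the libraries labelled WT and 3170.5 to 3640.0 in those labelled HO. Lama1, a laminin chain abundant in that layer, was at 164 and 153 CPM against 594 and 412. Thbd, at 15.2 and 18.4 CPM against 16.4 and 8.10, was not called, nor were Sparc, Nid1, Hspg2 and Plat. Fst and Stra6 were higher without passing, by 4.56 (edgeR adjusted p = 0.061) and 2.54 (edgeR adjusted p = 0.068). Fst was at 0.757 and 0.153 CPM in the libraries labelled WT against 12.5 and 9.18 in those labelled HO. Stra6 was at 0.707 and 0.305 CPM against 3.93 and 1.998. The part of parietal endoderm in the type IV values was not tested. Mesenchyme markers summed to 344 to 410.2 CPM and 332 to 407, ranges that overlap, with 2 of 6 tested lower (Tcf21 and Pdgfrb). Of 10 visceral endoderm markers 4 fell.

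Homozygous CD yolk sacs also held less type I and type III collagen RNA than WT. Of 38 members tested 1 rose and 8 fell, or 2.63% and 21.1%, against 1.27% and 1.89% of all genes tested (3.15% in either direction). All 9 were also called in the null line with the same direction, 47.4% of its calls, and each was larger there in size. Here too the overlap and the sizes were not counted over all genes. Fibrillar sums were 338 and 332 FPKM in WT, 371 and 254 in HE and 149 and 157 in HO. Basement membrane sums were 331 and 271 FPKM in WT and 327 and 374 in HO, which overlap, and no basement membrane chain was called.

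Col14a1 was at 42.7 and 33.1 CPM in CD WT yolk sacs and 12.5 and 14.2 in HO, a log2 change of -1.51 ± 0.19 (edgeR adjusted p = 0.0025). Col1a1 was at 1056 and 1099 CPM in WT against 357 and 453 in HO, a log2 change of -1.41 ± 0.21 (edgeR adjusted p = 0.0064). Each gene's HO values lay far below its WT values. Col3a1 was at 816 and 770.3 CPM in WT against 311 and 278 in HO, a log2 change of -1.43 ± 0.24 (edgeR adjusted p = 0.011), and Col1a2 at 538 and 552 CPM against 274 and 288, a log2 change of -0.96 ± 0.20 (edgeR adjusted p = 0.025). Col13a1 was at 10.1 and 9.88 CPM in WT against 3.11 and 2.33 in HO, a log2 change of -1.87 ± 0.33 (edgeR adjusted p = 0.015). Col9a1 was at 14.9 and 17.4 CPM in WT against 4.65 and 2.21 in HO, a log2 change of -2.21 ± 0.43 (edgeR adjusted p = 0.021). Of the 9 calls only that of Col14a1 stood under all alternatives run, and with a term for Y-linked transcripts, in a line whose WT and HO yolk sacs differ in sex, it was the only member called. Without WT replicate 1, WT replicate 2 or HO replicate 2 the members called were 2, 3 and 2. Parietal endoderm markers summed to 1929 to 2266 CPM in WT and 2219 to 2436 in HO, ranges that overlap, and 1 of 11, Lama1, rose. Of 10 visceral endoderm markers 3 fell, Apoa4 by 1.47, Cubn by 0.60 and Ttr by 0.45. Without HO replicate 1, high in trophoblast genes, 8 members were called. The part of these cells in the collagen values was not tested.

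Col20a1 rose in all 4 HO comparisons from levels under 1 CPM. In yolk sacs labelled null WT it was at 0.303 and 0.204 CPM (6 and 4 counts) and in those labelled HO at 1.496 and 2.38 (32 and 44 counts), a rise of 2.90 ± 0.52 (edgeR adjusted p = 0.0084). In CD yolk sacs it was at 0.299 and 0.292 CPM in WT against 1.999 and 1.56 in HO, a rise of 2.57 ± 0.51 (edgeR adjusted p = 0.022). The yolk sac calls were lost without either WT library, and in the CD line also without HO replicate 2 (adjusted p = 0.033 to 0.091 in the null line and 0.048 to 0.11 in the CD line when 1 library was left out). Its annotated exons share 1.54% of their bases with a same-strand gene, BX649560.1. Col19a1, another fibril-associated chain, had 0 counts in all 4 WT yolk sacs, with 4 and 11 counts in the null libraries labelled HO and 12 and 8 in CD HO. Set against a floor of 3 counts over the WT group, this was at least 4.98-fold higher in the null line and at least 7.38-fold in the CD line. The floor covers counting error only, and neither change was called (edgeR adjusted p = 0.14 and 0.12).

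Type I, type VI and type IX chains fell more, or rose less, in HO yolk sacs than in HO embryos. Averaged over the lines, the HO effect in yolk sacs minus that in embryos was called for 19 of 40 members, 2 higher and 17 lower, against 8.01% and 8.59% of all genes tested (16.6% in either direction). The 2 higher were Col7a1, the anchoring fibril chain, at 1.13 ± 0.27 (edgeR adjusted p = 0.0085), and the barely detected Col19a1. With a term for Y-linked transcripts 12 members were called. Col18a1 differed by -0.95 ± 0.11 (edgeR adjusted p = 2.0e-05), with rises in HO embryos of both lines. Col1a2 differed by -1.88 ± 0.24 (edgeR adjusted p = 4.2e-05) and Col1a1 by -2.12 ± 0.32 (edgeR adjusted p = 2.3e-04), whereas Col3a1 at -0.68 was not called (edgeR adjusted p = 0.16). Col9a1 differed by -2.50 ± 0.34 (edgeR adjusted p = 8.7e-05) and Col13a1 by -1.89 ± 0.28 (edgeR adjusted p = 1.8e-04). Tissue, table and sequencing run cannot be told apart in these differences.

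The HO effect on Col4a5 and Col4a6 differed between tissues, and that on Col4a1 and Col4a2 was not called different. Type IV genes lie head to head in pairs, with start sites 21 bases apart for Col4a1 and Col4a2 on chromosome 8, 72 bases apart for Col4a3 and Col4a4 on chromosome 1 and 1309 bases apart for Col4a5 and Col4a6 on chromosome X (GENCODE M21, mm10). For Col4a1 and Col4a2 the HO effect differed between tissues by 0.05 ± 0.11 and 0.06 ± 0.11, neither called (edgeR adjusted p = 0.83 and 0.8). For Col4a5 the difference was -0.97 ± 0.17 (edgeR adjusted p = 8.0e-04) and for Col4a6 -1.37 ± 0.24 (edgeR adjusted p = 8.0e-04), both called. Within single comparisons the members of a pair did not always share a call, since Col4a2 was called without Col4a1 in CD HO embryos and in null yolk sacs, and Col4a5 without Col4a6 in null yolk sacs. Col4a3 and Col4a4 were called in no comparison of HO with WT where tested. In embryos WT and HE libraries with Y-linked transcripts held 37.5 to 59.9 CPM of Col4a6 and those without 39.1 to 48.4, ranges that overlap and lie below all HO libraries, at 71.0 to 81.9.

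Sequence before the start sites of Col4a5 and Col4a6 is shown, since the HO effect on this X-linked pair differed between the tissues. The stretches lie outside annotated exons, for Col4a5 at chrX:141475169-141475384 on the plus strand and for Col4a6 at chrX:141474077-141474326 on the minus strand (RefSeq, GRCm38.p6). Capitals mark a CCAAT box (CCAAT) or a GC box (GGGCGG) on either strand.
Col4a5: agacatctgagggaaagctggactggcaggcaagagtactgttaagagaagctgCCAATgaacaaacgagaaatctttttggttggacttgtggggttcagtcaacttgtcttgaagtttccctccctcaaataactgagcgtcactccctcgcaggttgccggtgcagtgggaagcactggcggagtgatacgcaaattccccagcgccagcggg
Col4a6: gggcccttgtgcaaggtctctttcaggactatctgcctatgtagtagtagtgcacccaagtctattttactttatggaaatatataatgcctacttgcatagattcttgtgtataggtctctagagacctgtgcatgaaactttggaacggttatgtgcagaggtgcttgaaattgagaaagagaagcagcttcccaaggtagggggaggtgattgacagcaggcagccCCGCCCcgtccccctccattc
The stretch of Col4a5 held a CCAAT box and that of Col4a6 a GC box, and neither held TATAAA. The full 300-base window of Col4a5 also held a GC box, in bases that are not printed, so both windows held a GC box. The windows of Col4a1 and Col4a2, whose upstream bases lie within annotated exons and are not printed, had at least 73.7% GC, against 52.7% for Col4a5 and 48.3% for Col4a6. CCAAT or its reverse complement was found in 37.4% of all 32851 windows and 34.2% of the 38 windows of members.

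**Figure D5:**
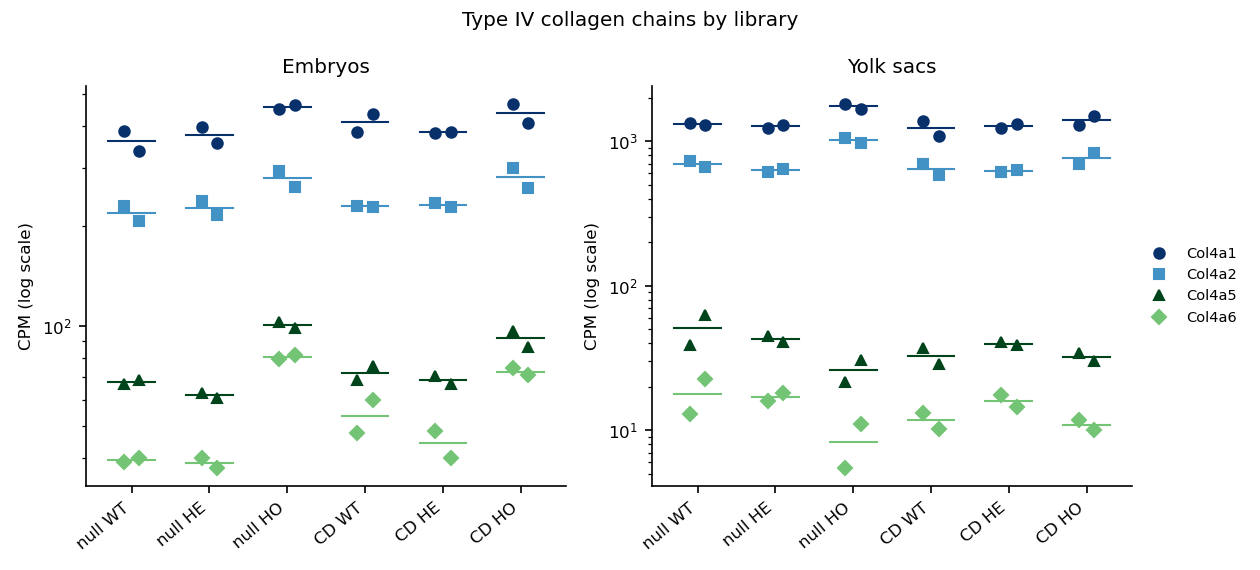
CPM (log scale) of Col4a1, Col4a2, Col4a5 and Col4a6 in each library of embryos (left) and yolk sacs (right), with a bar at each group mean. In embryos Col4a5 and Col4a6 are higher in all HO libraries than in any WT or HE library, and in null yolk sacs labelled HO Col4a1 and Col4a2 are at their highest mean while Col4a5 and Col4a6 are at their lowest mean.

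No member passed the test of a difference between the lines in their homozygous effect. The CD effect minus the null effect was called for 0 of 38 members in embryos, where 0.0208% of all genes were called, and for 0 of 38 in yolk sacs, where 0.0282% were. With edgeR at an unadjusted p below 0.05 there were 16 in embryos and 7 in yolk sacs, and DESeq2 called 4 and 0. Of those at an unadjusted p below 0.05, 14 of 16 in embryos and 7 of 7 in yolk sacs had the higher value in the CD line. Counts at this threshold and in refits are for members only. No share of all genes is set beside them, so they are not read as particular to collagens. Without CD WT replicate 1 edgeR called 8 members in embryos and without null HO replicate 1 it called 7. The smallest p in embryos belonged to Col23a1 at 0.73 ± 0.14 and Col26a1 at 0.90 ± 0.18, both with edgeR adjusted p = 0.15, and Col16a1 at 1.17 ± 0.27 (edgeR adjusted p = 0.16). In yolk sacs they belonged to Col8a2 at 3.90 ± 1.02, Col9a3 at 2.34 ± 0.74 and Col4a5 at 0.93 ± 0.31, each with edgeR adjusted p = 1. Positive values here mean a smaller fall or larger rise in the CD line.

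The WT groups of the lines were set against each other since any line difference rests on them. In embryos Y-linked transcripts were detected in both CD WT libraries and in neither null WT library. Line and sex therefore cannot be told apart between these embryo groups. No member was called in embryos, where 0.0312% of genes were, or in yolk sacs, where 0.0451% were. With edgeR at an unadjusted p below 0.05 there were 14 and 13, and DESeq2 called 4 and 3. Without CD WT replicate 1, which leaves the library that stands apart, edgeR called 12 members in embryos. In embryos the smallest p belonged to Col4a6 at 0.44 ± 0.11, Col23a1 at -0.38 ± 0.09 and Col16a1 at -0.69 ± 0.19. In yolk sacs Col1a2 was at 538 and 552 CPM in CD WT and 818 and 1229 in the null libraries labelled WT, a difference of -0.91 ± 0.20 (edgeR adjusted p = 0.41), with Col26a1 at -1.32 ± 0.31 and Col5a1 at -0.60 ± 0.15 next. All 13 members at an unadjusted p below 0.05 in yolk sacs were lower in CD WT. Here too counts at an unadjusted p and in refits have no share of all genes beside them.

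In heterozygotes no member was called in any of 4 comparisons by edgeR or by DESeq2. Of all genes 0.0104% were called in null HE embryos, 0.0156% in CD HE embryos and 0% in HE yolk sacs of each line. At an unadjusted p below 0.05 there were 2 and 10 members in null and CD embryos and 1 and 3 in the yolk sacs. The share of all genes at this threshold was not counted. In null HE embryos the smallest p belonged to Col24a1 at -0.42 ± 0.17, Col17a1 at -0.82 ± 0.37 and Col6a2 at -0.28 ± 0.13. Y-linked transcripts were detected in both null HE embryos and in neither null WT embryo, so sex and genotype cannot be told apart there. In CD HE embryos it belonged to Col9a2 at 0.73 ± 0.19, Col23a1 at 0.30 ± 0.09 and Col2a1 at 0.26 ± 0.08, and without CD WT replicate 1, which leaves the library that stands apart as the only WT, 10 members were called. In null yolk sacs labelled HE the smallest p belonged to Col25a1 at -2.40 ± 0.88, Col5a1 at -0.32 ± 0.15 and Col1a1 at -0.42 ± 0.21. In CD HE yolk sacs it belonged to Col20a1 at 1.75 ± 0.52, Col7a1 at 1.13 ± 0.38 and Col11a2 at -0.91 ± 0.35.

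Genes that act on collagen were followed through lists. Their counts are to be read against the shares of all genes called, 16.2% higher and 16.5% lower in null HO embryos, 6.92% and 9.14% in CD HO embryos, 2.3% and 3.97% in null yolk sacs and 1.27% and 1.89% in CD yolk sacs. Of 21 enzymes and chaperones of chain modification and folding, 7 rose and 4 fell in null HO embryos and 6 rose and 3 fell in CD HO embryos, with medians of 0.17 and 0.04. P4ha2, a subunit of the prolyl hydroxylase that stabilises the triple helix, rose by 1.06 ± 0.09 (edgeR adjusted p = 1.3e-05) and 0.76 ± 0.09 (edgeR adjusted p = 2.7e-04). Plod1, a lysyl hydroxylase, fell by 0.86 and 0.50 in the same comparisons, while its relative Plod2 rose by 0.59 and 0.42. In null yolk sacs labelled HO none rose and 5 fell, Plod1, P3h3, Fkbp10, the collagen chaperone gene Serpinh1 and P3h4, with Serpinh1 at -0.56 ± 0.13 (edgeR adjusted p = 0.03). In CD HO yolk sacs Plod1 and Mia3 fell.

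Of the processing and crosslinking genes, 4 of 19 rose and 3 fell in null HO embryos, near the background, and 4 rose and 1 fell in CD HO embryos. Loxl2, an enzyme that crosslinks collagen, rose by 0.53 ± 0.10 (edgeR adjusted p = 0.0023) and 0.46 ± 0.10 (edgeR adjusted p = 0.011). Bmp1, which trims the C-propeptides of fibrillar chains, fell by 0.60 and 0.44. In null yolk sacs labelled HO 6 of 18 tested fell and none rose, among them the proteoglycan genes Dcn at -1.63 ± 0.27 (edgeR adjusted p = 0.0057) and Lum at -1.32 ± 0.28 (edgeR adjusted p = 0.017), which coat type I fibrils. In CD HO yolk sacs none of 18 passed. For the list of degradation genes, 3 of 13 tested rose and 5 fell in null HO embryos, with the gelatinase gene Mmp2 at 0.74 ± 0.06 (edgeR adjusted p = 6.5e-06). The list also holds protease inhibitors, with Timp4 among the rises and Timp1 and Reck among the falls, so its counts give no direction of degradation. In CD HO embryos 1 rose and 2 fell, and Mmp2 was at 0.55 ± 0.06 (edgeR adjusted p = 1.1e-04). In yolk sacs 2 of 12 fell in the null line, Mrc2 and Mmp14, and none passed in the CD line.

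Among 10 collagen receptors 8 were tested in embryos, where Ddr2, a receptor for fibrillar collagen, changed by -1.65 ± 0.25 (edgeR adjusted p = 3.9e-04) and Adgrg1, a collagen III receptor, by -1.03 in null HO, and Itga10 rose by 0.71 in CD HO. None of 9 tested passed in yolk sacs of either line. A list of 15 regulators of collagen genes held 11 transcription factors, the secreted ligands Tgfb1, Tgfb2 and Tgfb3, and Ccn2, which encodes a matrix-associated protein. Of these 1 rose and 9 fell in null HO embryos and 1 rose and 7 fell in CD HO embryos, with medians of -0.52 and -0.31. Tgfb3 was the ligand among the falls in both lines. Twist1 and Prrx1, also on the mesenchyme list, fell in both, and Creb3l1, a regulator of type I collagen genes, rose by 1.41 ± 0.18 (edgeR adjusted p = 1.4e-04) and 0.74 ± 0.18 (edgeR adjusted p = 0.015). In null yolk sacs labelled HO Ccn2 rose by 1.48 ± 0.21 (edgeR adjusted p = 0.0028) and Sox5 and Sox6 fell, of 13 tested, and in CD HO yolk sacs none of the list passed.

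Members with few counts were not tested. In embryos these were Col6a4, Col6a5, Col6a6, Col10a1, Col19a1 and Col28a1, none above 0.348 CPM in any library. In yolk sacs they were Col4a3, Col6a4, Col6a5, Col10a1, Col17a1 and Col28a1, none above 0.511 CPM. Col10a1, the chain of hypertrophic cartilage, reached at most 5 counts in an embryo library and 3 in a yolk sac library. Col4a4, Col6a2, Col7a1, Col8a1, Col22a1 and Col27a1 were tested in both tissues and called in none of the 4 comparisons of HO with WT.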

How the data were processed

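Libraries were made from TRIzol RNA with the KAPA mRNA HyperPrep kit and sequenced on a NovaSeq6000, per the labels' protocols. The submitters' processing notes name fastp 0.22.0, HISAT2 2.2.1, featureCounts 2.0.1, DESeq2 1.32.0 and mm10. The strand setting, annotation and treatment of multiply mapped reads were not stated in the labels or notes used here. The authors deposited a table of raw read counts per gene for each tissue, with FPKM beside them. Recomputing FPKM from the counts and gene lengths gave the deposited values within 0.001 of the value in all 1330104 cases.

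The 12 libraries of a tissue were fitted together from the deposited counts (edgeR 4.0.16 in R 4.3.3, TMM scaling, filterByExpr with a minimum count of 10 and minimum total of 15, quasi-likelihood F test, Benjamini-Hochberg adjustment over all genes tested, 6 residual degrees of freedom). Comparisons between tissues used 1 fit of all 24 libraries with 12 residual degrees of freedom. The fits share the spread of all groups, since with 2 libraries against 2 an exact permutation test cannot go below p = 0.333. The fitting code was tested on simulated data. No pair of replicates agreed within sampling noise. Alternatives were RLE scaling, DESeq2 1.42.0, no low-count filter, the compared groups alone, a replicate block, a term for Y-linked transcripts, limma 3.58.1 voom with quality weights between tissues, and leaving out each library. Positions and exon overlaps came from GENCODE M21, whose exonic length equalled the deposited length for 42 of 44 members, and promoters from RefSeq GRCm38.p6.

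Members and lists were chosen with earlier results of these data known. Up to 6 called members in each direction, by smallest p at a mean of 1 CPM or more, are given in full per comparison of HO with WT, up to 4 for differences between tissues, and the 3 of smallest p where none was called.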

Additional observations from a re-analysis of the deposited data

Results flagged for a closer look

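For 19 members the test of the difference between tissues was itself called, that is, the homozygous effect in yolk sacs minus that in embryos, averaged over both lines, passed with edgeR in the fit of all 24 libraries. Values are log2 differences. Of fibrillar chains these were Col1a1 (-2.12), Col1a2 (-1.88), Col11a1 (-1.48), Col5a1 (-0.95) and Col5a2 (-0.95). Of basement membrane chains they were Col4a6 (-1.37), Col4a5 (-0.97) and Col18a1 (-0.95). Fibril-associated chains were Col9a1 (-2.50), Col9a3 (-2.25), Col9a2 (-1.64), Col14a1 (-0.93) and Col22a1 (-0.69). Other chains were Col6a1 (-1.94), Col13a1 (-1.89), Col6a3 (-1.40) and Col6a2 (-1.17), all lower, and Col7a1 (1.13), higher. Col19a1 had a fitted difference of 5.71, which depends on the prior count, is no bound and rests on WT yolk sacs at 0 counts. The calls of Col19a1, Col22a1 and Col6a3 were lost under 18, 13 and 12 of 22 alternatives.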

How the results depend on the processing

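Each count of members called was recomputed under every alternative, and the cause of the changes was not tested. These counts are for members only and are not set beside shares of all genes. No called value changed sign. Among refits of single named members 755 kept their side of the threshold, 62 lost a call and 30 gained 1. Without the low-count filter the count was 16 (from 10) for CD HO embryos, 16 (from 9) for CD HO yolk sacs, 2 and 11 (from 0) for null and CD HE embryos, 1 (from 0) for CD HE yolk sacs, 11 and 6 (from 0) for the line difference in embryos and yolk sacs, and 12 and 9 (from 0) for the WT groups. DESeq2 called 4 for the line difference in embryos and 4 and 3 for the WT groups of embryos and yolk sacs. With only the compared groups fitted, 1 was called in null HE embryos. The term for Y-linked transcripts left 4 in CD HO embryos, 1 in CD HO yolk sacs and 12 for the difference between tissues in the HO effect.

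With 1 library left out the count ranged from 13 to 19 in null HO embryos, 5 to 11 in CD HO embryos, 0 to 10 in CD HE embryos, 0 to 8 for the line difference in embryos, 0 to 12 for the WT groups of embryos, 8 to 16 in null yolk sacs labelled HO, 2 to 8 in CD HO yolk sacs, 26 to 30 between WT tissues and 14 to 19 for the HO effect between tissues. Replicate numbers did not pair the samples, since correlations of same-numbered libraries' deviations ran from -0.122 to 0.175. With a replicate block the count was 20 in null HO embryos, in place of 21, and equal to the main count in the other 13 comparisons. Of the 2 libraries per group, 1 left alone is assumed to vary like the other groups. Low-count members such as Col19a1, Col8a2 and Col4a4 are limited by depth.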
